A study of Homo sapiens with 3 samples.

Results

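CREB1 is the transcription factor that the cAMP-dependent kinase PKA phosphorylates, and FOS, JUN, JUNB, EGR1, NR4A1, ATF3, KLF6, SIK1 and DUSP1 are immediate early genes that respond to cAMP or to related signals. HDAC1 summits at these 10 loci were compared between HepG2 cells, a human hepatocellular carcinoma line, that were untreated (control, −H89) or treated with H89 (+H89), a small-molecule inhibitor of PKA. The members were the summits inside hg19 windows that reach about 10 kb beyond each gene, and they numbered 10 of 9476 control summits and 14 of 11553 H89 summits. All cells carried the WT genotype, and the labels give neither a dose nor a time for H89. CUT&Tag, in which an antibody guides a tagging transposase to chromatin, was done on 1 library per condition, and only the series title names HDAC1 as the antibody target. Values of an IgG library from untreated cells were not analysed here, so antibody background has no measure beside the summits.

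In the textbook account, cAMP releases the catalytic subunits of PKA, which phosphorylate CREB1 bound to cAMP response elements (CREs), and phosphorylated CREB1 recruits the acetyltransferases CBP and p300 to the gene. HDAC1 works in the opposite sense on chromatin, since it removes acetyl groups from histones, and it has been described in a complex with a protein phosphatase that dephosphorylates CREB1. Immediate early genes are switched on within minutes without new protein synthesis, and many answer to serum and stress kinases as well as to cAMP. H89 inhibits several kinases besides PKA. RNA, CREB1 phosphorylation and PKA activity have no values here.

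A summit is the base where a peak is highest. Its score is taken, from the pattern of the values, to be −log10 of an unadjusted p-value, so a higher score marks a stronger call. Read depth is unknown. With 1 library per condition there is no replicate check and no test of H89 against the control, and every difference below compares those libraries. Intervals are exact (Clopper-Pearson) 95% intervals that cover counting error only, with summits treated as independent. Those of ratios also treat the counts of the libraries as independent, although most summits had a partner in the other list. Distances are from the gene's 5′ end as the windows imply it, which is exact to about 1 kb, and are given in the direction of transcription.

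HDAC1 summits lay in the windows of CREB1, JUN, JUNB, EGR1, NR4A1, ATF3 and KLF6 in both libraries, in that of DUSP1 with H89 alone, and in those of FOS and SIK1 in neither. That makes 7 of 10 windows in the control and 8 of 10 with H89. Over the primary chromosomes, 8.95% of 40-kb tiles held a control summit and 10.4% held an H89 summit. The tiles include assembly gaps and gene-poor sequence, whereas the windows surround genes and run from 22 to 93 kb, so the tiles describe the genome and are no control for the windows. The H89 to control ratio of summits in the windows was 1.40 (interval 0.578 to 3.52), beside 1.22 over all summits (1.19 to 1.25). At a score of at least 5 it was 2.33 (0.533 to 14.0, from 7 H89 and 3 control summits), beside 1.34 over all summits (1.29 to 1.40).

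**Figure D1:**
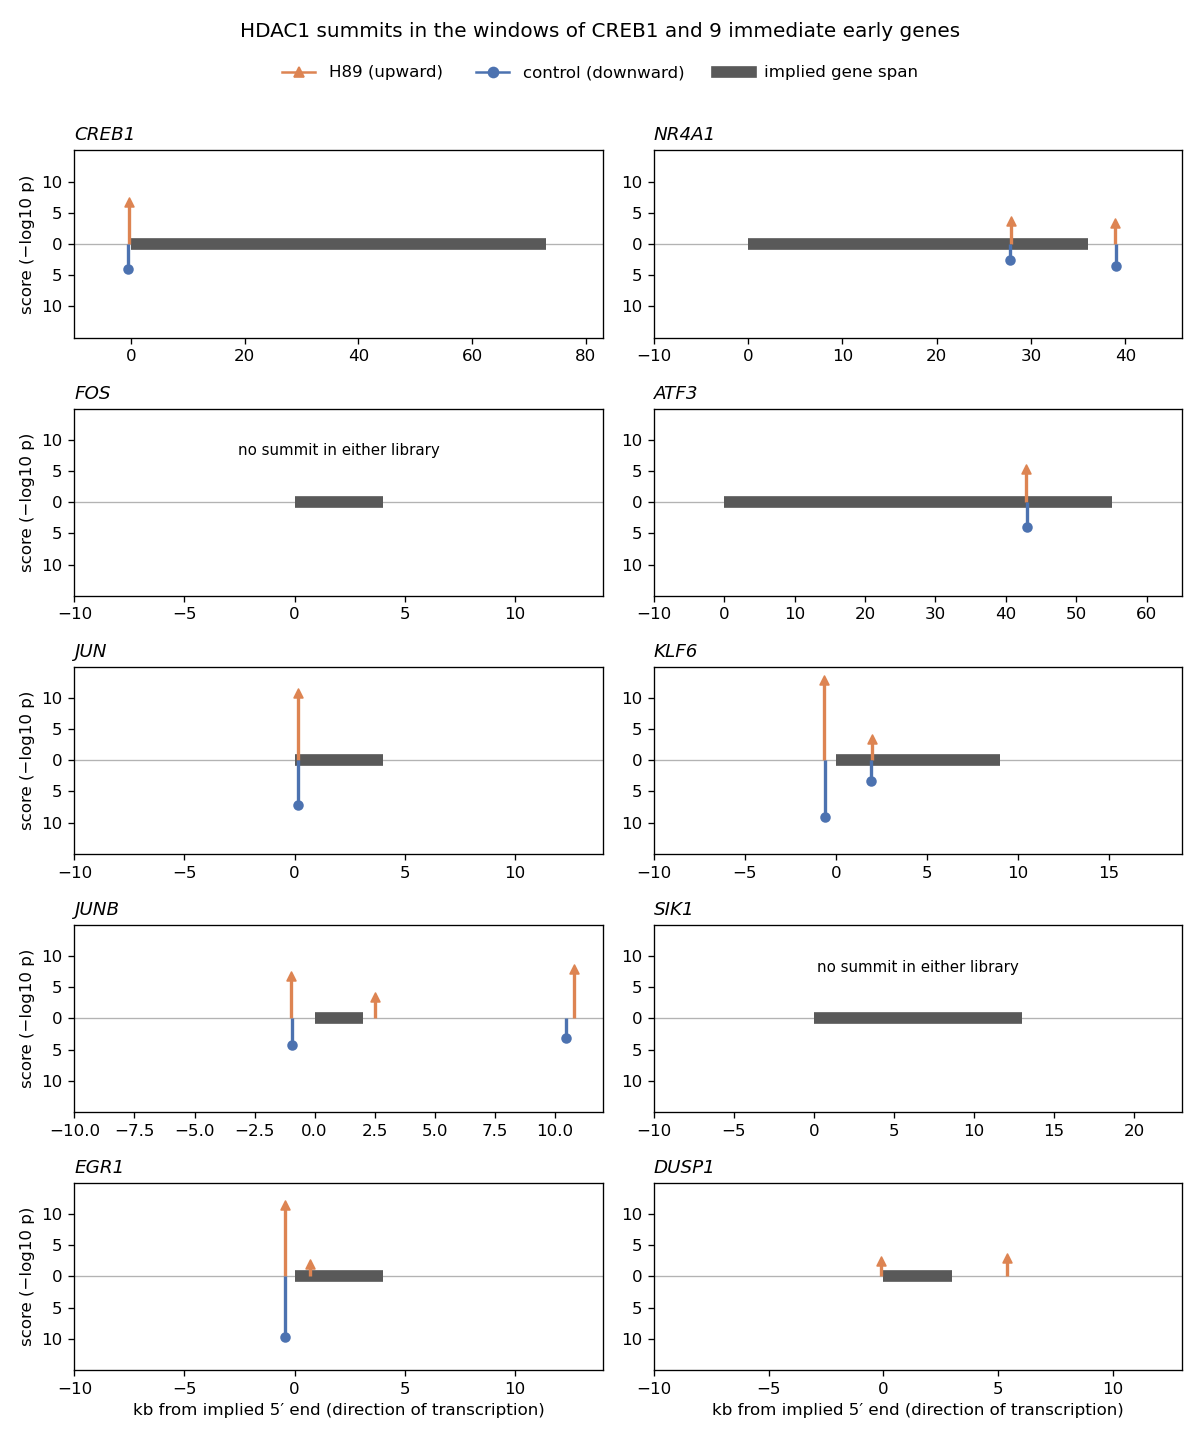
Each panel is 1 locus, with distance from the implied 5′ end in kb on the horizontal axis, the implied gene span as a grey bar and the score (−log10 p) of each HDAC1 summit as a vertical line, upward for H89 and downward for the control. The panels of JUN, EGR1 and KLF6 hold the highest lines, all close to the 5′ end, and those of FOS and SIK1 are empty.

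CREB1 itself had 1 HDAC1 summit in each library, just upstream of the gene. The control summit was at position 208394469 of chromosome 2, 532 bp before the implied 5′ end, with a score of 3.97. The H89 summit was at 208394605, 396 bp before that end, with a score of 6.68. The site stood in the middle of the control list, above 46.3% of its summits, and in the upper part of the H89 list, above 71.6%. The windows imply a CREB1 span of 73 kb, and no further summit was called along it in either library. A long noncoding RNA gene (LOC124907970) and METTL21A neighbour CREB1 within 10 kb in the RefSeq gene table, so a summit in this window need not belong to CREB1.

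FOS, JUN, JUNB and ATF3 encode bZIP proteins, FOS and the JUN proteins forming the AP-1 dimer and ATF3 belonging to the ATF/CREB family. JUN had 1 summit in each library, at the 5′ end of the gene. It lay at 59249866 of chromosome 1 in the control, scoring 7.18, and at 59249837 with H89, scoring 10.7, which is 134 and 163 bp inside the implied 5′ end. Both scores were high for their lists, above 80.6% of control and 90.4% of H89 summits.

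JUNB had 2 summits in the control and 3 with H89. The summit upstream of the gene, at 12901046 of chromosome 19 in the control and 12901037 with H89, scored 4.33 and 6.78. It lay 955 and 964 bp before the implied 5′ end, in a stretch where HOOK2 is the neighbouring gene. The second shared summit was at the far edge of the window, 8.48 kb past the implied 3′ end in the control (12912479, score 3.18) and 8.80 kb past it with H89 (12912802, score 7.98). This was the lowest-scoring JUNB summit in the control and the highest with H89. PRDX2 and THSD8 lie on that side of JUNB in the RefSeq table, so its assignment to JUNB is uncertain. The summit called with H89 alone, at 12904505, lay 0.504 kb past the implied 3′ end of JUNB, scored 3.498 and was 3.46 kb from the nearest control summit.

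ATF3, a repressor and activator induced by many stresses, had 1 summit in each library far inside its span. It was at 212781926 of chromosome 1 in the control, scoring 3.97, and at 212781872 with H89, scoring 5.28, which is 42.9 kb from the implied 5′ end in both libraries. The control score equalled that of the CREB1 summit and was shared by 112 control summits. ATF3 is known to use alternative start sites within the gene. Their hg19 positions were not used here, so whether the summit lies at one was not determined.

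FOS, the classic cAMP- and serum-induced gene, had no summit in its 24-kb window in either library. The nearest ones lay outside, 11.9 kb past the implied 3′ end in both libraries, at 75760887 of chromosome 14 in the control, scoring 5.51, and at 75760874 with H89, scoring 7.22. They were thus 1.89 and 1.87 kb beyond the window's edge.

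EGR1, KLF6 and NR4A1 encode DNA-binding factors of other families, EGR1 and KLF6 with zinc fingers and NR4A1 an orphan nuclear receptor. EGR1 had the highest control score of the 10 loci. Its main summit was at 137800574 of chromosome 5 in the control, scoring 9.69, and at 137800550 with H89, scoring 11.4. They lay 427 and 451 bp before the implied 5′ end. These scores exceeded those of 90.2% of control and 92.0% of H89 summits. A further EGR1 summit called with H89 alone, at 137801721, lay 720 bp inside the gene with a score of 2.03, which 227 H89 summits shared. That score is at the bottom of the H89 list, above only 0.0087% of its summits. It was 1147 bp from the control summit, just beyond the pairing distance of 1000 bp.

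KLF6 had the highest score of the 10 loci with H89. Its summit before the 5′ end was at 3827592 of chromosome 10 in the control, scoring 9.04, and at 3827629 with H89, scoring 12.8. They lay 592 and 629 bp upstream. The H89 score exceeded that of 94.4% of H89 summits, and the control score that of 89.7% of control summits. A second KLF6 summit inside the gene, 1922 bp from the 5′ end in the control and 1996 bp with H89, scored 3.37 and 3.36. The strong site thus scored higher with H89, while the weak site inside the gene was level between the libraries.

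NR4A1 had low-scoring summits at the same 2 places in both libraries. The one inside the span, 27.7 kb from the implied 5′ end in the control and 27.9 kb with H89, scored 2.51 and 3.65. The other lay past the gene, at 52455996 of chromosome 12 in the control, scoring 3.45, and at 52455890 with H89, scoring 3.44. With H89 that is 2.89 kb beyond the implied 3′ end, on the side where ATG101 neighbours NR4A1. All of them scored below the median of their list, which was 4.77 in the control and 4.76 with H89. NR4A1 is another gene with known alternative starts, which were not placed here.

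SIK1 and DUSP1 encode feedback enzymes, SIK1 a kinase that restrains CREB1 coactivators and DUSP1 a phosphatase of MAP kinases. SIK1 had no summit in its 33-kb window in either library. The nearest was 14.3 kb upstream of the implied 5′ end in the control (44861323 of chromosome 21, score 5.50) and 14.4 kb upstream with H89 (44861417, score 5.49). DUSP1 had none in the control, where the nearest summit was 18.3 kb upstream. With H89 it had 2 low-scoring summits, 1 at 172198110 of chromosome 5, 110 bp before the implied 5′ end (score 2.44), and 1 at 172192637, 2.36 kb past the implied 3′ end (score 2.94). They scored above 6.89% and 10.9% of H89 summits.

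The promoters of the genes with the strongest summits were set beside those of the genes with weak or no summits, to show which hold an exact match to the element CREB1 binds. The 250 bases before the start are taken from RefSeq on GRCh38.p14, another build than that of the summits, and were matched by gene symbol. All 10 genes matched, NR4A1 and ATF3 with 2 promoters each, which makes 12 sequences. Capitals mark the CRE (TGACGTCA), its core TGACG on either strand, which is contained in the CRE, and the CArG box, the site of serum response factor. EGR1, KLF6 and JUN, the 3 genes with the highest scores, had a summit near the 5′ end in both libraries, DUSP1 a weak one with H89, and FOS and SIK1 none.
EGR1, chr5:138465229-138465478, plus strand: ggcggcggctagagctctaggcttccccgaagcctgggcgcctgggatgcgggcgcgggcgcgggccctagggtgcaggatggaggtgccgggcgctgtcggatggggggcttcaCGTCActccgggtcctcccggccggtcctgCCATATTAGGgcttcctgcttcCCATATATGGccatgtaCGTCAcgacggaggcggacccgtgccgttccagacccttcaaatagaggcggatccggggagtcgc
KLF6, chr10:3785210-3785459, minus strand: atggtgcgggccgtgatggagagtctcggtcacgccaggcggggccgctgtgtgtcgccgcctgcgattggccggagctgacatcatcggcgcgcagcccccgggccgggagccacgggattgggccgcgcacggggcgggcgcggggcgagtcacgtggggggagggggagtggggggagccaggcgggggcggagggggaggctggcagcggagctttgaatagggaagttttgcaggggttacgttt
JUN, chr1:58784048-58784297, minus strand: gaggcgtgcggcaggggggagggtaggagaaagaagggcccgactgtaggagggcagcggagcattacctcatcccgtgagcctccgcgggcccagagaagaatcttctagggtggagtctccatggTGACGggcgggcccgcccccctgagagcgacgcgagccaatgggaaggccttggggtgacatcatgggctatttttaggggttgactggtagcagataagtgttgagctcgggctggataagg
DUSP1, chr5:172771196-172771445, minus strand: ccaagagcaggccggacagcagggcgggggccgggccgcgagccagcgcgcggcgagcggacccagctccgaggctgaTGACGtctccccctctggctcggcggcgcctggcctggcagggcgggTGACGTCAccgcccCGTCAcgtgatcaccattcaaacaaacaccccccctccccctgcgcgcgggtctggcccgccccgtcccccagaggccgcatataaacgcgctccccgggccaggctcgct
FOS, chr14:75278578-75278827, plus strand: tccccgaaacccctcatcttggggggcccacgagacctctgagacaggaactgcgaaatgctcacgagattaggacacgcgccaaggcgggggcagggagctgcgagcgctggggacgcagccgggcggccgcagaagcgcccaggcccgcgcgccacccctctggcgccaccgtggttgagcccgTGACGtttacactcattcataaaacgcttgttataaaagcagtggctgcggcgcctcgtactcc
SIK1, chr21:43427132-43427381, minus strand: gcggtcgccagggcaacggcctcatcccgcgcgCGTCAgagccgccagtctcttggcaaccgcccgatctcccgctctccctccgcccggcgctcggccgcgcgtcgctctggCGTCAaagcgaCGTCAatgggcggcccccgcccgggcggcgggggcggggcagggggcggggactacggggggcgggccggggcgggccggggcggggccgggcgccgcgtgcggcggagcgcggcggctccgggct

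A CRE core was present in the promoters of EGR1 and JUN, which had a strong HDAC1 summit near the implied 5′ end. It was also present in those of FOS and SIK1, which had no summit in their windows. No core was found in that of KLF6, which had the highest H89 score. The full CRE was found in 1 of the 12 promoters, that of DUSP1, where it begins 125 bases before the start, and in 1.65% of 35116 RefSeq promoter sequences of that length. The core TGACG was found on either strand in 6 of the 12 promoters and in 21.2% of all promoters. Those 6 belong to FOS, JUN, JUNB, EGR1, SIK1 and DUSP1. SIK1 holds 3 cores and DUSP1 holds 4, of which 2 overlap within its full CRE. EGR1 holds 2 cores, starting 135 and 66 bases before the start on either side of 2 CArG boxes. A CArG box was found in 1.16% of all promoters and in no other member promoter in this window. GGGCGG, the GC box bound by SP1, was found on either strand in 8 of the 12 promoters and in 42.6% of all promoters. Those 8 belong to all genes but JUNB and EGR1. GC content in the 12 promoters ran from 44.8% (ATF3) to 82.4% (SIK1), beside a median of 58.0% over all promoters. Only those of ATF3 and 1 of NR4A1 (53.2%) fell below that median, and the motif shares were not matched for GC content. CREB1 and KLF6 hold no core in this window, although both had a summit near the 5′ end in both libraries. Only exact matches were searched, so related sequences such as tgacatca were not counted. That sequence is present in the KLF6 and JUN promoters above and also in a promoter of ATF3. The ATF3 and NR4A1 promoters also hold no core. As none of the 12 promoters was placed on hg19, whether any of them covers a summit was not determined. These matches describe letters only, and 250 bases do not cover the distances at which several summits lay.

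**Figure D2:**
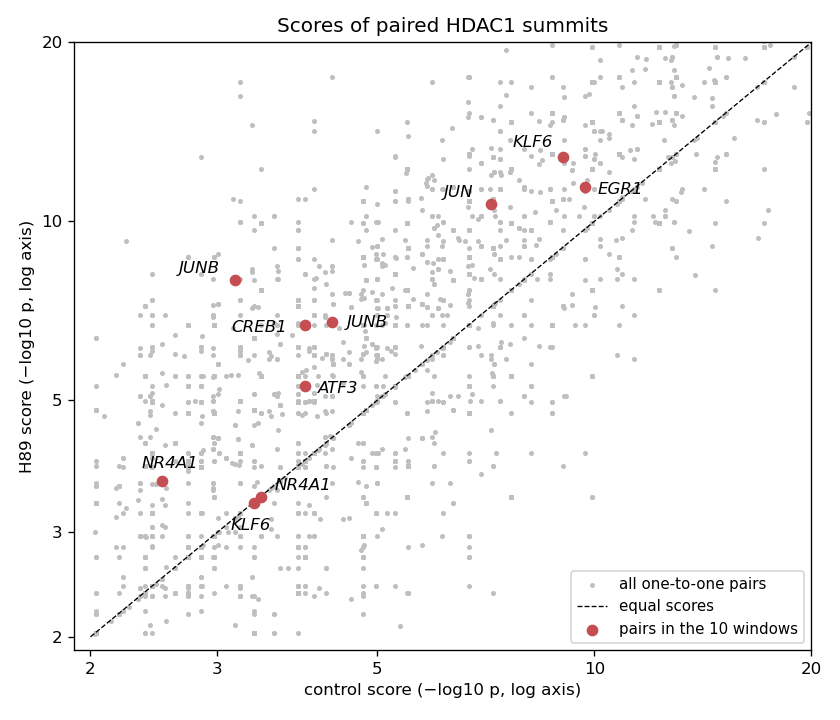
Each grey point is a pair of mutually nearest control and H89 summits within 1000 bp, with the control score on the horizontal and the H89 score on the vertical log axis, and the red points are the 10 pairs at the member loci. The dashed line marks equal scores, and the red points lie above it or within 0.01 of it. The axes end at a score of 20, beyond which 166 of the 8189 pairs are not drawn.

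Every control summit at these loci had an H89 summit within 1000 bp. That is 10 of 10 (100%, interval 69.2% to 100%), beside 87.6% of all control summits. Of the H89 summits, 10 of 14 had a control partner (71.4%, interval 41.9% to 91.6%), beside 72.2% of all H89 summits, so neither share stood clear of its background. The 4 H89 summits without a partner were those at DUSP1 (2), within EGR1 and past the 3′ end of JUNB, and their scores ran from 2.03 (EGR1) to 3.498 (JUNB). Paired summits lay 9 to 323 bp apart, with a median of 64 bp, beside 53 bp over all pairs.

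Of the 10 pairs, 8 scored higher with H89 by more than 0.1, at 7 genes. In no pair was the control score the higher one by more than that. The share was 80.0% (interval 44.4% to 97.5%), beside 50.2% of all 8189 pairs, a value inside that interval. The share higher in the control was 0 of 10 (interval up to 30.8%), beside 14.5% of all pairs. Pairs at 1 gene share their locus, so the 10 pairs stand for 7 genes. The 8 pairs scored higher with H89 by 1.14 (NR4A1, inside the span), 1.31 (ATF3), 1.73 (EGR1), 2.45 (JUNB, upstream), 2.72 (CREB1), 3.54 (JUN), 3.77 (KLF6, upstream) and 4.80 (JUNB, far downstream). The 2 level pairs, past NR4A1 and inside KLF6, differed by -0.01.

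**Figure D3:**
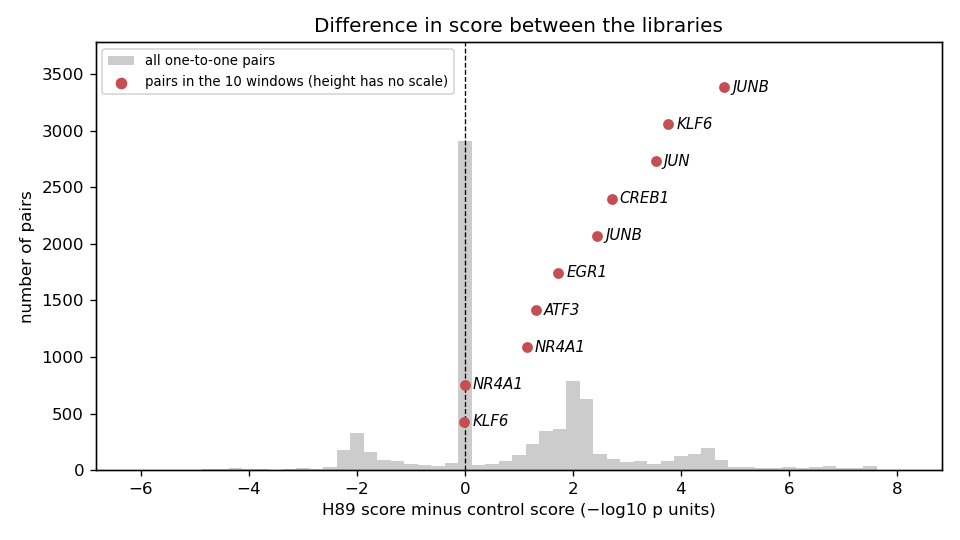
The histogram counts all pairs of mutually nearest summits by H89 score minus control score (−log10 p units), and each red point is a pair at a member locus, placed by its difference, with no scale for its height. The grey bars pile up near 0 and again near 2 on either side, and the red points range from -0.01 to 4.80. A further 105 pairs lie beyond the axis.

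The differences at the member loci fell among those seen at many other sites. The median difference was 2.09 at the member loci and 0.20 over all pairs, whose upper quartile was 2.15. The difference at the far downstream JUNB site exceeded 94.9% of all pairs, that at KLF6 88.4%, that at JUN 87.6% and that at CREB1 84.3%. The difference at EGR1 exceeded 61.6%. Among all pairs with a control score from 2 up to 4, 53.9% of 3411 were higher with H89 and the median difference was 0.85, while 4 of the 6 member pairs in that class were higher and their median was 1.23. From 4 up to 6, 41.3% of 2486 pairs were higher with a median of -0.01 and an upper quartile of 2.16, and the 1 member pair, upstream of JUNB, differed by 2.45. From 6 up to 8, 49.8% of 1125 pairs were higher with a median of 0.00 and an upper quartile of 2.25, and the 1 member pair, at JUN, differed by 3.54. From 8 up to 10 the share was 57.2% of 554 pairs with a median of 1.85, and EGR1 and KLF6, the 2 member pairs in that class, were both higher with a median of 2.75.

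Scores took stepped values, and the differences at the member loci are set beside the size of those steps. The 8 pairs higher with H89 differed by 1.14 to 4.80, some by less and some by more than 1 step. On the Poisson scale that was fitted to the commonest control scores, 2 counts correspond to a score of 3.45, 3 counts to 5.50, 4 to 7.67, 5 to 9.94 and 6 to 12.3, so that each count adds between 2.05 and 2.35. The scores past the 3′ end of NR4A1, 3.45 in the control and 3.44 with H89, are the 2-count step of the respective lists, a score shared by 1552 control and 1837 H89 summits. The other member scores are on no step of that scale or of a second one with a higher mean, within 0.001. Of all pairs, 33.0% were higher with H89 by 1 to 3, as were those at CREB1, EGR1, ATF3, upstream of JUNB and inside NR4A1, and 9.76% by 3 to 5, as were those at JUN, upstream of KLF6 and downstream of JUNB. A site with a higher local mean gains less per count, and whether the remaining scores rest on equally few counts was not tested. With 1 library per condition, a difference of a few counts and a change in HDAC1 occupancy cannot be told apart.

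Of the member summits, 0 of 10 scored 10 or more in the control, beside 6.49% of all control summits. With H89, 3 of 14 did (JUN, EGR1 and KLF6), beside 9.89% of all H89 summits. The median member score was 3.97 in the control and 4.47 with H89, below the list medians of 4.77 and 4.76. Within 1 kb of an implied 5′ end there were 5 control summits, at CREB1, JUN, JUNB, EGR1 and KLF6, and 7 H89 summits, at those 5 genes and DUSP1. The implied ends are themselves exact to about 1 kb only, so these counts are approximate. The JUNB summits, 955 and 964 bp away, lay close to the limit. The share of all summits that lie so near a gene start is unknown, because gene starts were not placed on hg19. The windows surround genes, so these counts do not set the member loci apart from other sites.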

How the data were processed

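The authors deposited a table of 1-bp peak summits for each HDAC1 library, whose score was taken, from its values, as −log10 of an unadjusted p-value. Each table was assigned to its library by the match of its peak names to the sample titles. Per the submitters' processing notes, Bowtie 0.12.2 and hg19 were used. The threshold, control library and name of the peak caller were not given in the sources used here. Where duplicate or multiply mapped reads were kept, scores at single sites would be higher. The windows, the member genes and the motif list were chosen with earlier results of these data known. All 10 members are named, with every summit in their windows.

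Positions are 1-based on hg19. A gene's span was taken as its window less 10 kb on each side, and its strand from the RefSeq promoter table. The RefSeq gene table describes GRCh38.p14, so it served for names of neighbours within 10 kb of a member only, and a wider list of cAMP pathway genes could not be placed on hg19. Pairs are mutually nearest summits within 1000 bp, and differences up to 0.1 count as level. Tiles used the hg19 chromosome lengths of GenomeInfoDb 1.38.1 (R 4.3.3). Score steps are upper tails of a Poisson mean (0.0269 in the control, 0.0271 with H89) fitted to the commonest score between 5 and 6. A second mean (0.0473 and 0.0477) was fitted to the commonest remaining score between 4 and 5. Pairing was tested on simulated data, where all 4000 planted pairs were recovered. Windows, pairing distances, score minimums, merging and the limit for level scores were varied. The software was Python 3.11.15 (scipy 1.17.1, pandas 2.3.3, numpy 2.4.6, matplotlib 3.10.9).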

Additional observations from a re-analysis of the deposited data

How the results depend on the processing

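Counts at the member loci depended on the window and on the score minimum. Without the flanks of about 10 kb, 4 control and 5 H89 summits remained, in 4 and 5 windows, since summits upstream of the implied 5′ ends and past the implied 3′ ends were left out, and the highest scores were then 2.03 for EGR1 with H89, 2.51 for NR4A1 in the control, and 3.37 and 3.36 for KLF6. CREB1, JUNB and, in the control, EGR1 then had no summit, and neither did DUSP1 with H89. With windows 10 kb wider on each side, every gene had a summit in both libraries (15 control and 21 H89 summits). The share of other genes with a summit in windows of that width was not measured. At a score of at least 5, and likewise at or above the list median, 3 control and 7 H89 summits remained, the control ones in 3 windows, and the ratio was 2.33 (interval 0.533 to 14.0), beside 1.34 over all summits scoring at least 5 and 1.31 over those at or above the list median. Requiring the identical base left 0% of either list with a partner. Counting any difference above 0 put 2 pairs higher in the control, both by 0.01 or less, and 8 pairs higher with H89. Merging summits within 500 bp left the counts of summits at 10 and 14. Pairing within 500 or 2000 bp and a limit of 0.5 each gave 8 pairs higher with H89, and pairing within 2000 bp gave 78.6% of H89 summits a partner. No paired analysis was possible because neither condition has a second library. The depth of both libraries is unknown, which limits all values.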

Other observations

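Summits in the 10 kb outside each window were also looked up. They are described for FOS and SIK1, and for DUSP1, whose window was empty in the control only. Beyond the windows of JUNB (12917082 of chromosome 19) and NR4A1 (52404770 of chromosome 12) lay H89 summits without a control partner. Both scored 3.44, and the nearest control summits were 4603 and 39965 bp away. How often other genes have a summit at such distances was not measured. Around FOS, a summit 19.1 kb upstream of the implied 5′ end in the control (position 75725872 of chromosome 14) and 19.2 kb upstream with H89 scored 8.72 and 8.71, level between the libraries and stronger than the one downstream, which scored higher with H89 by 1.71. Around SIK1, the upstream summit was level between the libraries, and so was one 17.2 kb past the implied 3′ end in the control, with scores of 3.45 and 3.44. The control summit nearest to DUSP1, at 172216256 of chromosome 5, had an H89 summit 7 bp away, with scores of 3.45 and 3.44. All these level scores lie on the fitted steps of their lists. The scores of 3.45 and 3.44 are the 2-count step, and those upstream of SIK1 (5.50 and 5.49) the 3-count step. Those upstream of FOS are the 5-count step of the second scale. These summits were looked up after the empty windows had been seen, and which genes they belong to was not determined.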
